A study of Mus musculus with 9 samples.

Results

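Fibroblast growth factors (FGFs) are secreted proteins that bind receptor tyrosine kinases on the cell surface, and 9 genes that read or damp this signal were followed in cultured mouse salivary gland epithelium. They were the receptors Fgfr2 and Fgfr3, the FGF carrier Fgfbp1, the feedback inhibitors Spry1, Spry2, Spry4 and Dusp6, and the ETS transcription factors Etv4 and Etv5. The genes were taken by symbol from the deposited count tables, where all 9 were present among 23366 rows. Levels are given for all 9 RNA-seq libraries of the series.

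Of these libraries, 6 came from mSGc, a spontaneously immortalized epithelial line grown out of the submandibular glands of 12-week-old male C57BL/6 mice. They were 1 library each at passages P2, P4, P10 and P25 in progenitor medium and 1 library each at P10 and P25 in differentiating medium. The other 3 were replicates of IMOK, an immortalized oral keratinocyte line labelled C57BL/6 and early passage and grown in a medium of its own whose make-up is not given in the sources used here. Progenitor medium is taken here to be the serum-free medium (SFM) of the study and differentiating medium the serum-containing medium (SCM), because the cells were started in SFM and the earliest passages carry only the progenitor label. SFM holds FGF, epidermal growth factor (EGF) and dexamethasone. SCM holds serum, retinoic acid, hydrocortisone, triiodothyronine and EGF, the last at a higher concentration than in SFM. No FGF is listed for SCM. Between mSGc and IMOK, the tissue of origin, the line, the medium and the experiment cannot be told apart. No source says that the IMOK replicates were separate cultures, so their spread may be technical.

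An FGF ligand bound with heparan sulfate brings 2 receptors together, and the activated pair signals mainly through Ras, Raf, MEK and the kinase ERK. ERK activity raises transcription of Etv4 and Etv5 and also of its own brakes: Sprouty proteins act on the steps above ERK, and Dusp6 is a phosphatase that removes phosphate from ERK in the cytoplasm. Fgfbp1 frees FGFs that are held in the extracellular matrix. In the developing salivary gland, FGF10 from the mesenchyme acting on Fgfr2 in the epithelium drives bud growth and branching.

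Fgfr2 and Fgfr3 are each made in alternative splice forms, because the second part of the third immunoglobulin-like domain is encoded by 1 of 2 alternative exons, and the choice sets which FGFs the receptor binds. The upstream exon gives the IIIb form, which is typical of epithelia. The IIIb exons are shown because they mark the epithelial receptor form and because a count for either gene, taken over all of its exons, does not say which form was present. They are printed 5′ to 3′ on the coding strand, in lower case, from NCBIM37, the genome that is also called mm9.
Fgfr2 IIIb exon, chr7:137343272-137343419, minus strand: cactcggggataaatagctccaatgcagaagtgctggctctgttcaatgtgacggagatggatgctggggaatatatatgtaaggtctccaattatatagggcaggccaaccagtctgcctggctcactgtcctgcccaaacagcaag
Fgfr3 IIIb exon, chr5:34073930-34074080, plus strand: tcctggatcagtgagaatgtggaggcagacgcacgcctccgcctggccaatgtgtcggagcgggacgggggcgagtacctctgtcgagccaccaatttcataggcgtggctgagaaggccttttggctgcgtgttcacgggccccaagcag
Both exons are wholly coding and lie inside the exons over which reads were counted. The IIIb exon is part of 13 of the 20 coding Fgfr2 transcripts in the GENCODE vM1 annotation, and of 1 of the 7 coding Fgfr3 transcripts. In an alignment of 165 columns, gap columns included, the IIIb exons of the receptors had the same base in 93, or 56.4%.

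In mm9 the other members lie at chr5:44370097-44373038 (Fgfbp1), chr3:37538872-37543521 (Spry1), chr14:106291164-106296036 (Spry2), chr18:38745919-38760922 (Spry4), chr10:98725865-98730123 (Dusp6), chr11:101631056-101646624 (Etv4) and chr16:22381386-22439643 (Etv5). Fgfr2 spans chr7:137305965-137410322 and Fgfr3 chr5:34064373-34079717. All 9 are protein-coding genes, and none shares exon bases with another row of the count table.

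The libraries held between 6237884 and 18444963 counted reads. IMOK replicate 1 stood apart from the other IMOK replicates: a chi-square comparison of counts gave 150 and 180 per degree of freedom against replicates 2 and 3, compared with 21.3 between those 2. It was above both other replicates for 56.6% of the 12885 genes tested. All 8 epithelial markers examined, among them Krt5, Krt14 and Cdh1, were at 1 TPM or more in every library. The summed level of 8 mesenchymal markers was 25.7 TPM in mSGc at P2 and 1.29 to 7.56 in the other mSGc libraries, and 24.9 in IMOK replicate 1 against 7.41 and 9.21 in the other replicates. In IMOK replicate 1 the sum was mostly Mmp2, at 18.2 TPM against 2.82 and 3.20 in replicates 2 and 3, and Col1a1, at 5.25 against 0.395 and 0.345. Twist2 was lower there, at 0.358 against 3.36 and 4.66 TPM, and Dcn and Lum gave no reads. At P2 it was mostly Col1a2, Mmp2 and Col1a1, at 9.88, 7.02 and 6.68 TPM. Between 0 and 3 of the 8 genes gave no reads in a library. Summed leukocyte markers reached at most 0.196 TPM and endothelial markers at most 0.945 TPM.

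Levels are TPM, transcript counts per gene length scaled to a fixed library total, computed from the deposited counts and gene lengths. Fgfbp1 was the most abundant of the 9 genes in mSGc and Dusp6 came second, at 176 to 357 TPM. Spry1, Spry2, Etv4 and Etv5 ranged from 11.5 to 168 TPM over all libraries. Fgfr3 and Spry4 were scarce and stood on 24 to 163 and 7 to 110 reads per library, so their single-library values are the least precise. The highest library exceeded the lowest by 10.9 times for Fgfbp1, 9.24 times for Spry1, 6.01 times for Fgfr2 and 5.79 times for Spry4, and by 2.58 times for Etv4, the most even of the 9.

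**Figure D1:**
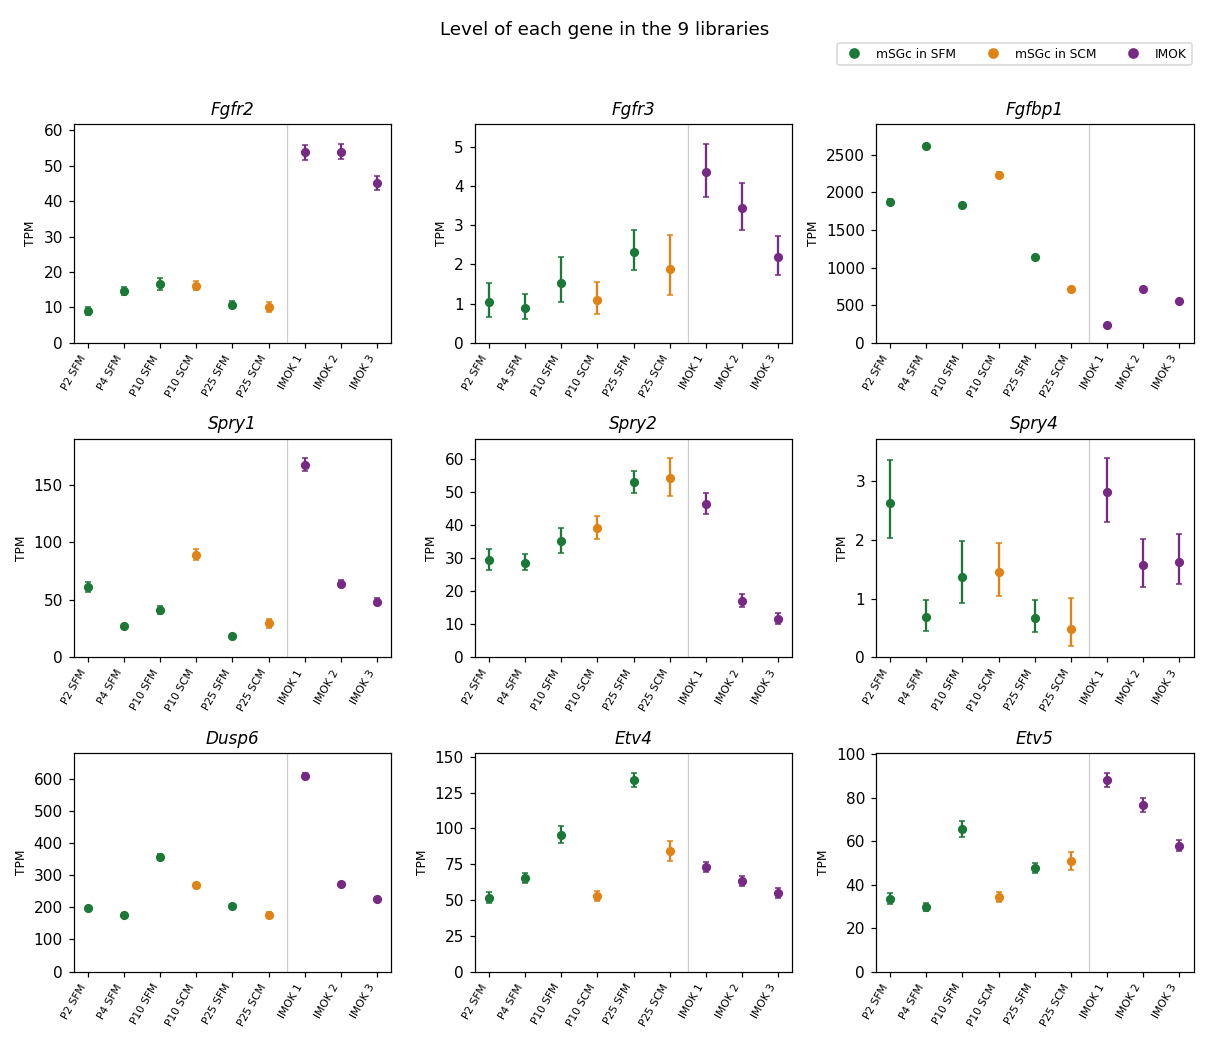
TPM of each gene (vertical axes, starting at 0) in the 9 libraries, with exact 95% Poisson intervals that cover counting error only; green, mSGc in SFM, orange, mSGc in SCM, purple, IMOK. Fgfr2 is separated completely between the lines, with mSGc at 8.98 to 16.5 TPM and IMOK at 45.0 to 54.0 TPM, and IMOK replicate 1 is the highest library for Fgfr3, Spry1, Spry4, Dusp6 and Etv5.

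The first comparison set all 6 mSGc libraries against IMOK, which asks how the FGF system of the gland line differs from that of another epithelial line. Fgfr2 was lower in mSGc and Fgfbp1 was higher. These were 2 of the 9 genes past an adjusted p of 0.05 (edgeR quasi-likelihood test, Benjamini-Hochberg adjustment over all genes tested), against 14.9% of all 12885 genes, of which 6.58% were higher and 8.3% lower in mSGc. The remaining 7 genes did not pass. The median log2 fold change of the 9 was -0.52 and that of all genes tested was 0.0023. The fit treats the 6 mSGc libraries, which are passages and media of 1 line, as replicates. Its SEs and p-values, and the SDs given below, therefore do not measure variation between independent lines.

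Fgfr2 stood at 8.98, 14.5, 16.5 and 10.8 TPM in SFM at P2, P4, P10 and P25, at 16.1 and 10.01 TPM in SCM at P10 and P25, and at 53.8, 54.0 and 45.0 TPM in IMOK replicates 1, 2 and 3. Every mSGc library was below every IMOK library, in both media and at all passages. The means were 12.8 ± 3.30 TPM in mSGc (SD, n = 6) and 50.9 ± 5.11 TPM in IMOK (SD, n = 3), and the log2 fold change was -1.77 with an SE of 0.21 (edgeR adjusted p = 0.000857). The call held without each library in turn, with adjusted p between 0.000927 and 0.00694. Over all genes, groups did not overlap with mSGc lower for 17% of those tested. Within the Fgfr2 order, the neighbors at P10 in SFM, P10 in SCM and P4 had overlapping counting intervals, as did those at P25 in SFM, P25 in SCM and P2, whereas a gap separated these 2 sets.

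Fgfr3 was low throughout, at 1.03, 0.886, 1.53 and 2.33 TPM in SFM at P2, P4, P10 and P25, 1.08 and 1.88 TPM in SCM at P10 and P25, and 4.35, 3.43 and 2.18 TPM in IMOK. The lines overlapped, since mSGc at P25 in SFM lay above IMOK replicate 3. The log2 fold change was -0.92 with a 95% interval of -1.87 to 0.037 and did not pass (edgeR adjusted p = 0.180).

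The other receptors completed the picture. Fgfr1 was at 78.3, 55.8, 103 and 76.8 TPM in SFM at P2, P4, P10 and P25, 68.9 and 42.2 TPM in SCM at P10 and P25, and 104, 18.6 and 11.2 TPM in IMOK replicates 1, 2 and 3. IMOK replicate 1 was as high as the highest mSGc library while its fellow replicates were below all of them. The log2 fold change over all libraries was 0.96 with an SE of 0.58 (edgeR adjusted p = 0.299), and without IMOK replicate 1 it was 2.41 with an SE of 0.38 (edgeR adjusted p = 0.00504). Fgfr4 gave at most 2 reads in any library. Fgfrl1, a related receptor without a kinase domain, lay between 10.97 and 30.2 TPM in mSGc and between 16.2 and 41.8 TPM in the IMOK replicates and did not pass (edgeR adjusted p = 0.561).

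Because of Fgfr1 and Fgfr2 the make-up of the receptor transcripts differed by library, a description chosen after the values were seen and given with no test. Fgfr1 made up 78.0% to 88.5% of the summed TPM of Fgfr1 to Fgfr4 in mSGc, and Fgfr2 made up 10.1% to 20.4%. In IMOK replicates 2 and 3 Fgfr2 made up 71.0% and 77.0%. In IMOK replicate 1 its share was 33.1% and that of Fgfr1 was 64.2%. Fgfr3 stayed between 1.17% and 4.51% in all 9 libraries. The mesenchymal marker sum was also raised in IMOK replicate 1 through Mmp2 and Col1a1, while Twist2 and Dcn on that list were not raised, and its part in the Fgfr1 level was not tested.

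**Figure D2:**
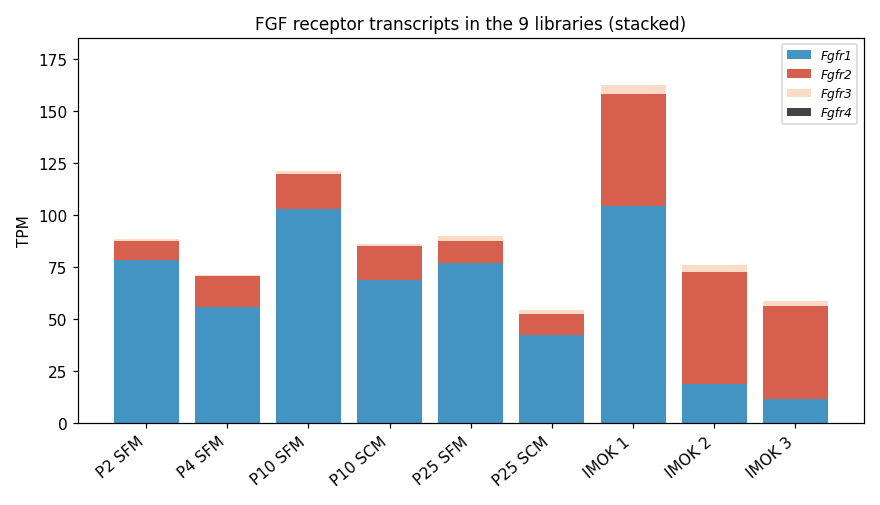
Stacked TPM of Fgfr1, Fgfr2, Fgfr3 and Fgfr4 (vertical axis, starting at 0) in the 6 mSGc and 3 IMOK libraries, 1 bar per library. Fgfr1 fills most of each mSGc bar and of IMOK replicate 1, and Fgfr2 fills most of the bars of IMOK replicates 2 and 3, while Fgfr4 is not visible at this scale.

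Fgfbp1 was very abundant in mSGc, at 1877, 2612, 1828 and 1138 TPM in SFM at P2, P4, P10 and P25 and at 2232 and 708 TPM in SCM at P10 and P25. IMOK replicates 1, 2 and 3 gave 241, 718 and 557 TPM. The lines overlapped at a single point, where mSGc at P25 in SCM lay just below IMOK replicate 2 with overlapping counting intervals. Means were 1733 ± 701 TPM in mSGc (SD, n = 6) and 505 ± 243 TPM in IMOK (SD, n = 3), and the log2 fold change was 1.96 with an SE of 0.48 (edgeR adjusted p = 0.0226). The call was lost without IMOK replicate 2 (edgeR adjusted p = 0.0512) or replicate 3 (edgeR adjusted p = 0.0692), with log2 fold changes of 2.29 and 2.07. Fgfbp1 is on the study's own list of mSGc-enriched genes, which was drawn partly from these libraries, so that list is not independent evidence of its direction.

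Among the feedback inhibitors none passed. Spry2 was at 28.6 to 54.2 TPM in mSGc and at 46.4, 17.1 and 11.5 TPM in IMOK replicates 1, 2 and 3, so that only replicate 1 lay within the mSGc range. Its log2 fold change was 0.96 with a 95% interval of 0.035 to 1.89 (edgeR adjusted p = 0.150), and 1.66 without IMOK replicate 1 (edgeR adjusted p = 0.0205). Spry1 was at 18.1 to 89.2 TPM in mSGc and 168, 64.2 and 48.3 TPM in the IMOK replicates, and the log2 fold change was -0.86 with a 95% interval of -1.85 to 0.13 (edgeR adjusted p = 0.220), and without IMOK replicate 1 it was -0.24 (edgeR adjusted p = 0.755). In both Sprouty genes IMOK replicate 1 was far above replicates 2 and 3, at 2.98 times their mean for Spry1 and 3.24 times for Spry2.

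Dusp6 was at 176 to 357 TPM in mSGc and at 609, 272 and 226 TPM in IMOK replicates 1, 2 and 3. The ranges overlapped, and the log2 fold change was -0.43 with a 95% interval of -1.11 to 0.25 (edgeR adjusted p = 0.385). Spry4 spanned 0.486 to 2.63 TPM over the mSGc libraries and 1.57 to 2.81 TPM over the IMOK replicates, and its log2 fold change was -0.52 with a 95% interval of -1.66 to 0.61 (edgeR adjusted p = 0.538). The intervals for Spry1, Spry4 and Dusp6 reach past a 2-fold difference in at least 1 direction, so these libraries leave a difference of that size undecided.

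The ETS factors did not pass either. Etv4 was at 51.7 to 134 TPM in mSGc and at 72.9, 63.1 and 54.7 TPM in IMOK, entirely inside the mSGc range, giving a log2 fold change of 0.61 and a 95% interval of -0.18 to 1.40 (edgeR adjusted p = 0.280). Etv5 was at 29.5 to 65.5 TPM in mSGc and at 88.1, 76.6 and 57.9 TPM in IMOK. Only mSGc at P10 in SFM lay above IMOK replicate 3, and the log2 fold change was -0.53 with a 95% interval of -1.13 to 0.076 (edgeR adjusted p = 0.220).

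IMOK replicate 1 was above both other replicates for Fgfr3, Spry1, Spry2, Spry4, Dusp6, Etv4 and Etv5, as it was for 56.6% of all genes tested. Its level was at least 2 times the mean of replicates 2 and 3 for Spry1, Spry2 and Dusp6, as it was for 20.2% of all genes tested. It was 1.09 to 1.76 times that mean for Fgfr2, Fgfr3, Spry4, Etv4 and Etv5. Fgfbp1 went the other way, at 0.378 times the mean. IMOK replicate 1 thus carried much of the IMOK spread of the feedback genes and little of that of Fgfr2.

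The second comparison kept to passage and set the 2 P10 libraries, 1 in each medium, against IMOK. According to the paper, the IMOK cells were at the passage number of its P10 mSGc data. Fgfr2 was called and lower, 1 of the 9 genes, against 4.2% of the 13018 genes tested in either direction and 1.87% lower, with a log2 fold change of -1.47 and an SE of 0.20 (edgeR adjusted p = 0.0254). The call held without IMOK replicate 1. It was lost without P10 in SFM (edgeR adjusted p = 0.116), P10 in SCM (0.164), IMOK replicate 2 (0.141) or replicate 3 (0.0884), while the log2 fold change stayed between -1.58 and -1.38.

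Fgfbp1 had a log2 fold change of 2.13 at P10 with a 95% interval of 0.87 to 3.40 and did not pass (edgeR adjusted p = 0.0777). Both P10 libraries were above all IMOK libraries for Fgfbp1, which held for 16.3% of genes tested. They were below all IMOK libraries for Fgfr2, Fgfr3 and Spry4, which held for 28.8%. For Fgfr3 and Spry4 the nearest P10 and IMOK libraries had overlapping counting intervals. These stood at 1.53 and 2.18 TPM for Fgfr3 and at 1.45 and 1.57 TPM for Spry4. The other log2 fold changes were -1.14 for Fgfr3, 0.80 for Spry2, -0.31 for Spry1, -0.31 for Spry4, -0.010 for Dusp6, 0.42 for Etv4 and -0.37 for Etv5, and none passed. Without IMOK replicate 1 the genes called were Fgfr2, Fgfbp1 and Spry2, at adjusted p of 0.00882, 0.0109 and 0.0170 in edgeR, and 3416 genes were called in all instead of 547. The 2 comparisons share the IMOK libraries and both P10 libraries.

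**Figure D3:**
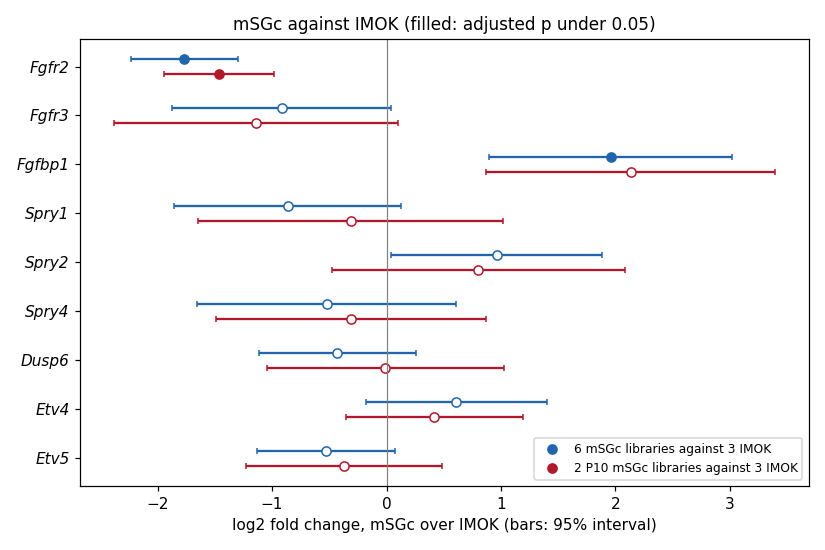
Log2 fold change of mSGc over IMOK (horizontal axis) for each gene with its 95% interval; blue, all 6 mSGc libraries, red, the 2 P10 libraries, each against 3 IMOK libraries, filled where the edgeR adjusted p is under 0.05. Fgfr2 is filled in both comparisons at -1.77 and -1.47, Fgfbp1 only with all libraries at 1.96, and the open points mark values that did not pass.

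The rest of the pathway was read from a list of 75 other genes for receptors, cofactors, ligands, kinases of the ERK cascade, and ERK targets or inhibitors. Of the 53 tested against all mSGc libraries, 2 were higher and 7 lower in mSGc, and 44 were not called, beside 6.58% higher and 8.3% lower among all genes tested. The median log2 fold change was -0.059. The 7 lower genes included the ligands Fgf5 and Fgf7, which passed the read filter only through IMOK and could only be called lower. At P10, 2 of 55 were higher and 1 lower, beside 4.2% of all genes called in either direction.

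Ligands were mostly scarce: 16 of 22 never reached 1 TPM in any library, and 4 gave no reads at all. Fgf7, a ligand of the IIIb form of Fgfr2, was at 41.4, 3.13 and 2.43 TPM in IMOK replicates 1, 2 and 3 and at 1.27 TPM in mSGc at P2, 0.125 at P4, 0 in both P10 libraries, and 0.044 and 0.119 at P25 in SFM and SCM. Every mSGc library was below every IMOK library (edgeR adjusted p = 0.0168), but the call was lost without IMOK replicate 1 (edgeR adjusted p = 0.0961). The highest library of each line for Fgf7 was also the one with the highest mesenchymal marker sum, whose part was not tested. Fgf5 gave 25, 30 and 43 reads in IMOK and at most 1 in any mSGc library. It was at least 7.06-fold lower in mSGc when each mSGc library is set to 3 reads (edgeR adjusted p = 0.00108). Both Fgf5 and Fgf7 had too few reads to be tested within mSGc. They passed the read filter here only through the IMOK libraries, so a call could only be lower.

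Fgf13, which is an intracellular relative that does not act through FGF receptors, spanned 5.93 to 27.6 TPM over the mSGc libraries and 1.60 to 8.86 TPM over the IMOK replicates (edgeR adjusted p = 0.186). Fgf1, which binds all FGF receptors, spanned 0.150 to 18.9 TPM and 5.01 to 19.7 TPM in the same order (edgeR adjusted p = 0.473). Neither passed, and both overlapped between the lines.

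Within the ERK cascade, 3 of 22 genes were lower in mSGc and none higher, beside 8.3% lower and 6.58% higher among all genes tested. Ksr1, a scaffold for Raf, MEK and ERK, was at 0.246 to 1.09 TPM in mSGc and 9.23, 4.55 and 3.79 TPM in IMOK, giving a log2 fold change of -2.94 (SE 0.48, edgeR adjusted p = 0.00368). Gab1, a docking protein that links receptors to Ras signaling, had a log2 fold change of -1.15 (SE 0.27, edgeR adjusted p = 0.0192). The third was Ptpn11, the phosphatase Shp2, at -0.65 (SE 0.17, edgeR adjusted p = 0.0292), named here after its value was seen. Gpc1, a cell-surface heparan sulfate proteoglycan, was also lower, at -1.12 (SE 0.28, edgeR adjusted p = 0.0268). Without IMOK replicate 1 the Gab1 and Gpc1 calls were lost (edgeR adjusted p = 0.0636 and 0.0928, with Gpc1 at -0.60), as was that of Gab1 without replicate 2 (0.0532) and that of Gpc1 without mSGc at P4 (0.0583). That of Ptpn11 was lost without P10 in SFM (0.0523), P10 in SCM (0.0537), P25 in SFM (0.0547), P25 in SCM (0.0523), IMOK replicate 2 (0.0768) or replicate 3 (0.127).

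Of 19 further ERK targets and inhibitors, 18 were tested, and 2 were higher and 1 lower, beside the same shares. Ier3, an immediate early gene, was at 135 to 262 TPM in mSGc and 104, 75.9 and 74.8 TPM in IMOK, giving a log2 fold change of 1.31 (SE 0.20, edgeR adjusted p = 0.00309). Dusp7, a cytoplasmic ERK phosphatase like Dusp6, was at 122 to 234 TPM in mSGc and 99.95, 76.0 and 84.0 TPM in IMOK, giving a log2 fold change of 1.23 (SE 0.26, edgeR adjusted p = 0.0129). The Dusp7 call was lost without IMOK replicate 2 or 3 (edgeR adjusted p = 0.0723 and 0.05004), and Dusp7 too is on the study's list drawn partly from these libraries. Spred1, a Sprouty relative that restrains Ras, was at 21.1 to 37.4 TPM in mSGc and 103, 67.3 and 61.7 TPM in IMOK, giving a log2 fold change of -1.15 (SE 0.18, edgeR adjusted p = 0.00336). At P10 Ier3, Ksr1 and also Cbl, a ubiquitin ligase that sends activated receptors to degradation, passed, with log2 fold changes of 1.39, -3.19 and 1.20 (edgeR adjusted p = 0.0269, 0.0494 and 0.0461). Each of these P10 calls was lost without either P10 library or without IMOK replicate 2 or 3, with adjusted p in edgeR up to 0.163, 0.185 and 0.230.

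The third comparison asked whether levels differed with the medium within mSGc, in a fit with terms for medium and log2 passage over the 6 libraries. None of the 9 genes passed in edgeR, against 0.0241% of the 12451 genes tested. At an unadjusted p under 0.05 there were 2 of the 9, Etv4 and Spry1, against 8.18% of all genes. DESeq2 called 1 of the 9, with 2.18% of all genes called, and limma voom called 0 of the 9 and 0 of all genes. None of the 51 other pathway genes tested passed, with 7 at an unadjusted p under 0.05.

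Etv4 gave 95.5 TPM in SFM against 52.7 in SCM at P10, and 134 against 84.0 TPM at P25. It was lower in SCM at both passages, and CPM, counts scaled to the library total, gave SCM over SFM ratios of 0.512 at P10 (95% interval 0.466 to 0.562) and 0.575 at P25 (0.526 to 0.628), intervals that cover counting error only. The fitted log2 difference, SCM minus SFM, was -0.96 with an SE of 0.22 (edgeR adjusted p = 0.219). In DESeq2 the same difference was -0.95 and passed (adjusted p = 0.00560).

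Spry1 was higher in SCM at both passages, at 89.2 against 41.0 TPM at P10 and 29.5 against 18.1 TPM at P25. The CPM ratios were 2.02 (1.82 to 2.25) and 1.49 (1.26 to 1.76), and the fitted log2 difference was 1.04 with an SE of 0.39 (edgeR adjusted p = 0.529). Without the P10 library in SCM this difference was 0.36. The fitted differences of Etv4 and Spry1 lay in opposite directions between the media, neither passed in edgeR, and their cause was not tested.

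Dusp6 gave 357 TPM in SFM against 269 in SCM at P10, and 205 against 177 TPM at P25, with CPM ratios of 0.700 (0.672 to 0.729) and 0.788 (0.744 to 0.835) and a fitted log2 difference of -0.30 (95% interval -1.12 to 0.53). Etv5 differed at P10 alone, at 65.5 TPM in SFM and 34.2 in SCM with a CPM ratio of 0.484 (0.443 to 0.530), against 47.7 and 50.7 TPM and a CPM ratio of 0.971 (0.883 to 1.07) at P25. Fgfbp1 differed in opposite directions, with CPM ratios of 1.13 (1.11 to 1.16) at P10 and 0.569 (0.546 to 0.593) at P25. The ratios of Fgfr2, Fgfr3, Spry2 and Spry4 had intervals that held 1 at both passages, and the fitted log2 differences had 95% intervals of -0.99 to 0.71 for Fgfr2, -1.81 to 0.64 for Fgfr3, -0.72 to 0.47 for Spry2 and -1.54 to 1.53 for Spry4.

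Counted over the 9 genes, the single-library interval lay above 1 for 2 genes and below 1 for 3 at P10, and above 1 for 1 gene and below 1 for 3 at P25. Over all genes tested these shares were 34.3% and 27.3% at P10 and 30% and 24.2% at P25. The CPM ratios use library totals without TMM factors, and their intervals leave out any error of that scaling. For Etv5 at P25, TPM was higher in SCM and CPM lower. The ligand Fgf1 was at 18.9 TPM in SCM against 3.004 in SFM at P10 and 1.22 against 0.150 TPM at P25. The fitted log2 difference for Fgf1 was 3.06 with an SE of 0.91 and did not pass (edgeR adjusted p = 0.373). With the P10 and P25 libraries alone and passage as a block it was 2.61 (edgeR adjusted p = 0.0416), where 1.03% of the 11938 genes tested were called. Of the 3 ligands with the highest TPM, only Fgf1 was followed in the medium fits. Leaving out single libraries gave 0.96 without P10 in SCM and 4.39 without P10 in SFM, neither of which passed.

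**Figure D4:**
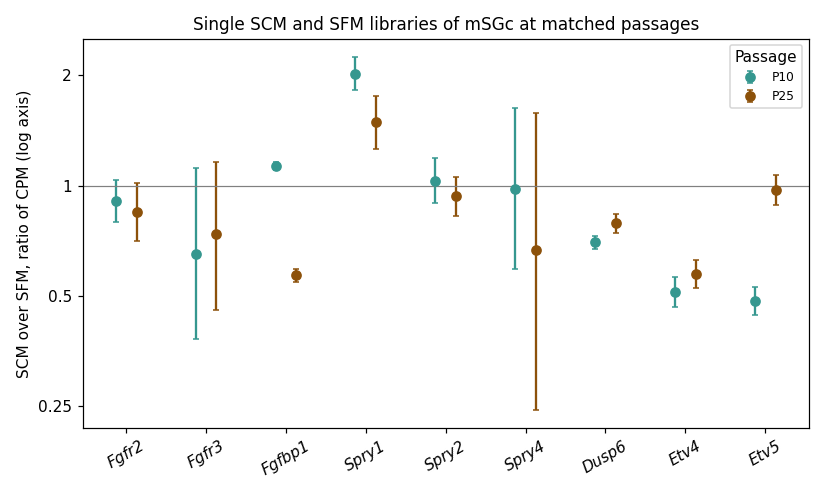
Ratio of CPM in SCM to CPM in SFM (vertical log axis) for each gene at P10 (teal) and P25 (brown), 1 library per medium and passage, with exact 95% intervals that cover counting error only. Etv4 lies at 0.512 and 0.575 and Spry1 at 2.02 and 1.49, whereas Fgfbp1 lies above 1 at P10 and below 1 at P25.

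The fourth comparison took passage from the same fit, as the log2 change per doubling of passage number. None of the 9 genes passed in edgeR, against 0.49% of the 12451 genes tested, while 5 were at an unadjusted p under 0.05, against 13.2% of all genes. DESeq2 called 1 of the 9, Etv4, with 5.62% of all genes called, and limma voom 0, with 0.602% of all genes. Of the 51 other pathway genes tested none passed and 9 were at an unadjusted p under 0.05.

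Etv4 stood at 51.7, 65.5, 95.5 and 134 TPM in SFM at P2, P4, P10 and P25, and at 52.7 and 84.0 TPM in SCM at P10 and P25. It was higher at each later passage in either medium, and a TPM higher at each later SFM passage held for 2.67% of all genes tested. The slope was 0.45 per doubling with an SE of 0.076 (edgeR adjusted p = 0.0652). It passed in DESeq2 (adjusted p = 1.14e-05) and in edgeR without P10 in SFM (adjusted p = 0.0305), and edgeR gave adjusted p of up to 0.537 without other libraries.

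The remaining genes at an unadjusted p under 0.05 were Spry2, Etv5 and Fgfr3 with positive slopes and Spry1 with a negative one. Spry2 was at 29.4, 28.6, 35.2 and 52.9 TPM in SFM at P2, P4, P10 and P25, lowest at the earliest passages, and its slope was 0.31 (edgeR adjusted p = 0.191). Spry1 was at 61.4, 27.1, 41.0 and 18.1 TPM in SFM, with the P4 library low and the P10 library higher again, and its slope was -0.40 (edgeR adjusted p = 0.309). Slopes were 0.31 for Etv5 (edgeR adjusted p = 0.284) and 0.44 for Fgfr3 (edgeR adjusted p = 0.348).

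Spry4 was at 2.63, 0.679, 1.37 and 0.666 TPM in SFM at P2, P4, P10 and P25. Its point values were low and high at the same passages as those of Spry1. The Spry4 counting interval at P10 overlapped those at P4 and P25, so within SFM only P2 stood apart for Spry4. Both Sprouty genes were highest at P2 within SFM, the library with the largest mesenchymal marker sum in mSGc, whose part in them was not tested. Dusp6 and Etv5 were highest at P10 within SFM, at 357 and 65.5 TPM. Fgfbp1 was lower at P25 than at P10 in both media, with CPM ratios of 0.662 in SFM and 0.333 in SCM. Each passage in a given medium is 1 library, so these courses have no replicate check.

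**Figure D5:**
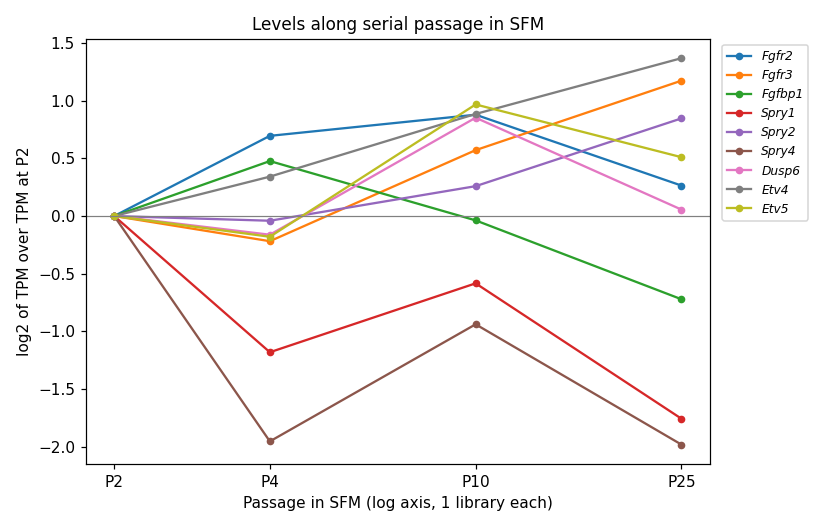
Log2 of TPM relative to P2 (vertical axis) for each gene in the SFM libraries at P2, P4, P10 and P25 (horizontal log axis), 1 library per passage. Etv4 is the gene that is higher at every step, from 51.7 to 134 TPM, and Spry1 and Spry4 are below their P2 level at every later passage.

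For the 4 genes whose log2(TPM + 1) spanned more than 2 across the libraries, the genes with the most similar profile were sought among 13303 by the root mean square difference of centered log2(TPM + 1) over the 9 libraries. For Fgfr2 they were Ldlrad3 and Gm5801, at 0.253 and 0.257 against a median of 0.947 for all genes compared. Gm5801 was near the floor, at 0 to 0.367 TPM in mSGc and 2.47 to 3.56 TPM in IMOK, where the added 1 weighs on the profile. For Fgfbp1 they were Atg9b and Armcx3, at 0.357 and 0.358 against a median of 1.21. Spry1 was nearest to Malat1, a nuclear noncoding RNA, at 0.200 and to 4931406C07Rik at 0.238, against 0.868. Spry2 was nearest to Spata2l at 0.233 and Smtn at 0.237, against 0.831. The libraries differ in line, medium, passage and depth at once, so likeness here is a description of these 9 libraries.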

How the data were processed

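RNA-seq was read in 9 mouse libraries. The deposited values are raw read counts per gene; per the labels the authors mapped reads to mm9 with TopHat2 2.1.1 and Bowtie2 2.2.6 and counted them with featureCounts 1.5.1, and DESeq2 1.12.4 is also listed. The gene annotation and the strand and multi-mapping settings are not given in the sources used here. TPM were computed here from counts and the deposited lengths. Genes were tested with edgeR 4.0.16 (R 4.3.3; TMM factors, filterByExpr, quasi-likelihood F test, Benjamini-Hochberg adjustment over all genes, threshold 0.05), which was checked on simulated counts. Terms were line (6 or 2 mSGc against 3 IMOK), or medium and log2 passage within mSGc. DESeq2 1.42.0 and limma 3.58.1 voom were alternatives, as were other size factors, filters and libraries left out. Counting intervals are exact, at 95%, and cover counting error only, since they are computed from the reads of single libraries. Reads carry no molecular identifiers, so the intervals also leave out error from duplicated reads. Other pathway genes were named where they are FGF receptors, are 1 of the 3 ligands with the highest TPM, or passed the test at 1 TPM or more in at least 2 libraries, up to 6 per direction by size of change. The members and lists were chosen with earlier results of these data known. Some sequence is not reported here.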

Additional observations from a re-analysis of the deposited data

Results flagged for a closer look

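Fgfbp1 differed between the media in opposite directions at the passages where both media were sequenced. The ratio of CPM in SCM to CPM in SFM was 1.13 at P10 and 0.569 at P25. With 1 library per medium and passage, the difference between these ratios was not tested. The P25 library in SCM is also the mSGc library that overlapped IMOK for Fgfbp1.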

How the results depend on the processing

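The number of the 9 genes called against IMOK was 2 with all mSGc libraries and ranged from 1 to 3 when a library was left out. It was 3 without IMOK replicate 1, where 14.7% of all genes were called, and 1 without IMOK replicate 2 or 3, where 5.61% and 7.14% were called in place of 14.9%. It was 1 with the mSGc libraries in SCM alone, where Fgfbp1 was lost and 3.43% of all genes were called, and 2 with the SFM libraries alone and with each other test, size factor and filter tried. At P10 it was 1, with 4.2% of all genes called, and 0 to 3 with a library left out, where the share of all genes was 0% without either P10 library, 0.283% and 0.538% without IMOK replicates 2 and 3, and 27.1% without replicate 1. DESeq2 called 2 at P10, and 17.1% of all genes. For medium and passage it was 0, DESeq2 called 1 each (Etv4), and leaving out libraries gave 0 for medium and 0 to 1 for passage. The cause of these changes was not tested.

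None of the values whose sign turned had passed the test. Against IMOK, leaving out single libraries gave Dusp6 -0.65 to 0.040 and Fgfrl1 -0.54 to 0.085 on the log2 scale. At P10 it gave Dusp6 -0.33 to 0.44, Etv4 -0.19 to 0.84, Etv5 -1.03 to 0.074 and Spry1 -0.88 to 0.29, and limma voom gave Dusp6 0.078. For medium it gave Fgfbp1 -1.03 to 0.19, Fgfr2 -0.59 to 0.071, Spry2 -0.24 to 0.073 and Spry4 -0.65 to 0.26. Spry4 was also at 0.0018 with DESeq2, 0.21 with limma voom, 0.0027 with RLE size factors and 0.049 without TMM factors. For passage Fgfr2 ranged from -0.19 to 0.20 and was -0.0073 with untransformed passage.

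Without TMM factors the median of all genes against IMOK was -0.10 in place of 0.0023, and calls split into 663 higher and 1373 lower in place of 848 and 1070. DESeq2 called 272 genes for medium where edgeR called 3, and 700 against 61 for passage. Fgfr3 and Spry4 rest on the fewest reads. Where a left-out library leaves 1 library in an arm, that library is assumed to vary like the others. Replicate numbers do not pair libraries between groups. The SFM and SCM libraries were paired by passage only, at P10 and P25. With passage as a block there, 0 of the 9 genes were called, against 1.03% of all genes tested.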
